A study of Mus musculus with 4 samples.

Results

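Compact regions of histone H3 trimethylated at lysine 36 (H3K36me3) that had a region of lysine 4 trimethylation (H3K4me3) beside or inside them were described in mouse embryonic forebrain. They numbered 1668 of the 10195 H3K36me3 regions found on chromosomes 1 to 19. Each was 5 to 15 kb wide, the lowest 3 widths that bins of 5 kb can give, and each overlapped an H3K4me3 region or had one within 5 kb of an edge. An H3K36me3 region was built from 5 kb bins with at least 20 ChIP tags and a ratio of ChIP to scaled input of at least 2. An H3K4me3 region was built from 1 kb bins with at least 20 ChIP tags and a ratio of at least 4. In both, qualifying bins separated by at most 1 other bin were merged. The ratio is (ChIP tags + 1) divided by (input tags, scaled to the library total of the ChIP, + 1). The regions were thus chosen by the height of both marks and the distance between them, and those values are given as a description.

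H3K4me3 is found on the nucleosomes that flank the start sites of active genes, and at lower level at many poised ones. H3K36me3 is laid down across the bodies of transcribed genes by SETD2, an enzyme that travels with elongating RNA polymerase II. In a transcribed gene the first mark therefore commonly sits at the start and the second begins further along the direction of transcription. The length of the H3K36me3 stretch then depends in part on the length of the gene.

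The libraries came from forebrain of CD1 mouse embryos, an outbred strain, at embryonic day 11.5. Forebrains of many embryos were pooled and fixed with formaldehyde, with 36 forebrain pieces per ChIP library, so no value belongs to 1 animal or to 1 cell type. There were 4 groups of 1 library: an H3K4me3 ChIP made with 10 microlitres of antibody, its input, an H3K36me3 ChIP made with 15 microlitres of antibody, and its input. The H3K4me3 ChIP and its input went through 8 cycles of whole-genome amplification, and the H3K36me3 ChIP and its input did not. The mark and the amplification cannot be told apart. With 1 library per group there was no spread between replicates and no test between conditions, and the 95% intervals below reflect only the counting of tags or the differences among regions within single libraries.

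The H3K4me3 ChIP had 7606197 tags in use, its amplified input 2513019, the H3K36me3 ChIP 10466543 and its unamplified input 23110768. On the autosomes this came to 3.09, 1.03, 4.35 and 9.51 tags per covered kb. The H3K36me3 rule called 9.75% of 469331 bins of 5 kb, and the H3K4me3 rule called 0.638% of 2070042 bins of 1 kb. All positions are in the mouse build mm8. Gene positions of that build were not used here, so regions are named by position alone, the forebrain label was not checked against marker genes, and no gene or sequence is given.

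Of the 5529 compact H3K36me3 regions, 30.2% (95% exact binomial interval 29.0 to 31.4) had H3K4me3 nearby. With the input scaled on background bins in place of library totals, the share was 14.1%. At the scale used here it was 19.8% (18.4 to 21.2) for the 3046 regions of 5 kb, 42.2% (39.6 to 44.9) for the 1400 regions of 10 kb and 43.9% (40.9 to 46.9) for the 1083 regions of 15 kb. The intervals at 10 and 15 kb overlapped, and both lay above that at 5 kb. Among wider regions, 59.3% (57.8 to 60.8) of those of 20 to 75 kb and 72.0% (67.4 to 76.2) of those of 80 kb or more had H3K4me3 nearby, and over H3K36me3 regions of every width the share was 44%. A wider region offers more sequence in which an H3K4me3 region can lie, and the part of that in these shares was not tested.

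The 1668 regions were spread fairly evenly over the 3 widths, with 602 of 5 kb (36.1%), 591 of 10 kb (35.4%) and 475 of 15 kb (28.5%). Together they covered 16.045 Mb, or 0.678% of the 2368 Mb of covered autosomal genome. They held 5.72% of the autosomal H3K36me3 ChIP tags and 1.17% of the tags of its input. The H3K36me3 ChIP stood at 8.44 times its autosomal mean in them and the unamplified input at 1.72 times its own. The amplified input stood at 1.37 times its mean, so these regions were dense in tags without immunoprecipitation too.

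A compact region with H3K4me3 nearby held a median of 264 H3K36me3 tags (interquartile range 120 to 493), with a lowest of 20 and a highest of 2339. Its input held a median of 131 tags. The median ratio was 4.09 (3.94 to 4.22; 9.07 among the regions found with the background scale), with an interquartile range of 2.90 to 5.93. The lowest ratio was 1.58, below the threshold, because 50 of the 3209 bins in these regions were filled in by merging across a bin that did not qualify. The highest was 19.6. Pooled over all of them, the ratio was 4.94 against their own input and 6.25 against the amplified input.

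The wider of these regions also carried the mark at a higher ratio. The median was 3.18 at 5 kb, 4.43 at 10 kb and 4.93 at 15 kb, and the tag density was 21.6, 33.4 and 33.5 tags per kb. The density at 10 and 15 kb was close to the 30.8 tags per kb of regions of 20 to 75 kb with H3K4me3 nearby, whose median ratio was 5.16. It was above the 25.3 tags per kb of regions of 80 kb or more with H3K4me3 nearby, whose ratio was 5.19. Compact width thus did not go with a low tag density among regions that had H3K4me3 in reach, apart from those of a single 5 kb bin. The unamplified input was denser too, at 15.9 and 15.1 tags per kb at 10 and 15 kb, against 13.2 and 10.7 in the wider classes. The median ratio at 10 kb was below those of the wider classes. At 15 kb its interval (4.62 to 5.20) overlapped theirs.

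Compact H3K36me3 regions without H3K4me3 nearby, 3861 in number, had a median ratio of 2.71 (2.68 to 2.75) and 14.6 tags per kb. Both sets had passed the same H3K36me3 threshold. Strong regions were more frequent among those with H3K4me3 nearby. A ratio of 8 or more was reached by 29 of 602 regions of 5 kb with H3K4me3 (4.82%) and by 12 of 2444 without it (0.491%). At 15 kb the counts were 58 of 475 (12.2%) with H3K4me3 and 10 of 608 (1.64%) without it.

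Read in the other direction, the share of compact regions with H3K4me3 nearby was higher in each higher class of H3K36me3 ratio up to a ratio of 8. Among regions of 5 kb it was 13.9% at ratios of 2 to 3, 21.1% at 3 to 4, 34.2% at 4 to 6, 62.0% at 6 to 8 and 70.7% (54.5 to 83.9) in the 41 regions at 8 or more. Among regions of 10 and 15 kb it was 21.1%, 36.5%, 58.0%, 81.6% and 81.2% in the same classes. The intervals of the top 2 classes overlapped at both widths. At a ratio of 8 or more, 12 regions of 5 kb and 26 of 10 and 15 kb had no H3K4me3 region within 5 kb that met the rule.

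**Figure D1:**
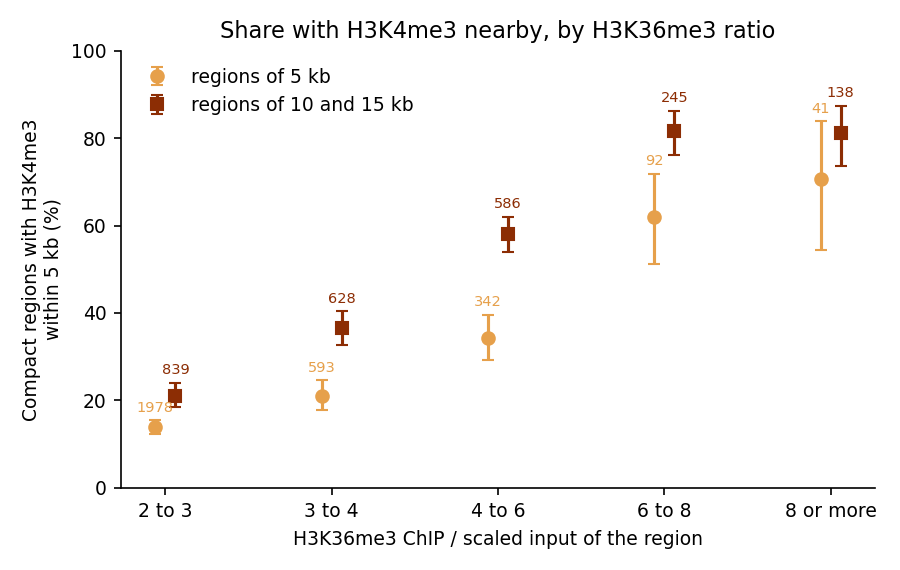
The vertical axis gives the percentage of compact H3K36me3 regions with H3K4me3 within 5 kb and the horizontal axis the class of H3K36me3 ratio, for regions of 5 kb (circles) and of 10 and 15 kb (squares). Bars are exact 95% binomial intervals and the numbers beside them count regions; the share goes from 13.9% to 70.7% at 5 kb and from 21.1% to 81.2% at the larger widths.

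The share also differed with the density of the unamplified input, which is no product of either antibody. Divided into 4 equal parts by input tags per kb, compact regions had H3K4me3 nearby in 19.04%, 28.2%, 31.7% and 42.0% of cases from the lowest to the highest. Within each part the median H3K36me3 ratio was higher with H3K4me3 than without it. In the lowest part it was 3.59 against 2.83, and in the highest 4.16 against 2.75. Across the 1668 regions the tag density of H3K36me3 followed that of the input (Spearman 0.785), while the ratio hardly did (Spearman 0.0664), both as descriptions across regions of the same libraries. Whether input density has a part in the share with H3K4me3 nearby was not tested.

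Most of the regions had a single H3K4me3 region in reach. There were 1527 with 1 (91.5%), 133 with 2, 6 with 3 and 2 with 4. The H3K4me3 region overlapped the H3K36me3 region in 425 cases (25.5%), lay outside its low-coordinate end in 606, outside its high-coordinate end in 574 and outside both ends in 63. The low and the high end were about equally frequent. Overlap was more frequent in wider regions, at 16.8% (13.9 to 20.01) at 5 kb, 29.6% (26.0 to 33.5) at 10 kb and 31.4% (27.2 to 35.8) at 15 kb.

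Where the nearest H3K4me3 region lay outside, the gap to it was most often short. Of 1243 such regions, 256 had H3K4me3 directly at the edge, 250 at 1 kb, 246 at 2 kb and 224 at 3 kb. The counts were then lower, with 154 at 4 kb and 113 at 5 kb. Just beyond the limit of the rule, compact regions with their nearest H3K4me3 at 6, 7, 8, 9 and 10 kb numbered 85, 75, 80, 73 and 49, so the limit of 5 kb cut through a declining count and not through a gap.

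**Figure D2:**
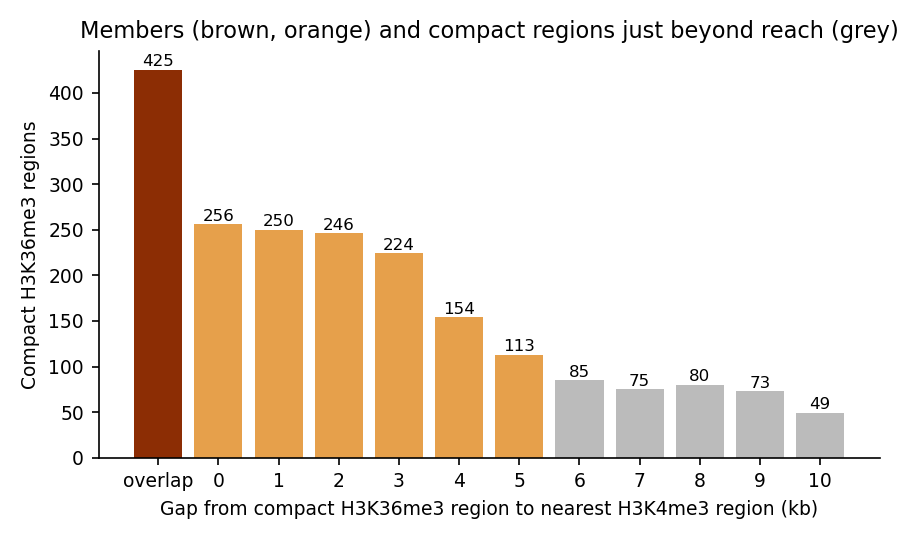
Bars count compact H3K36me3 regions by the distance in kb to the nearest H3K4me3 region: overlapping (brown), outside within 5 kb (orange) and, not among the 1668, at 6 to 10 kb (grey). Counts are 425 for overlap, 246 to 256 at 0 to 2 kb, 113 at 5 kb and 49 at 10 kb.

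The H3K36me3 ratio was lower where H3K4me3 lay further away. With 1 H3K4me3 region outside, the median ratio was 4.39 at a gap of 0 kb, 4.24 at 1 kb, 4.21 at 2 kb, 3.55 at 3 kb, 3.44 at 4 kb and 3.02 at 5 kb. The gap was measured to the edge of the fixed grid of bins. These classes were not split by width, with which the ratio also differed. The parts of grid and width in this order were not tested. Regions that H3K4me3 overlapped had a median of 4.45. The 63 regions with H3K4me3 outside both ends had the highest median, 5.82 (interquartile range 4.32 to 7.72), and the 17 of them that were 15 kb wide reached 7.41. These hold the H3K36me3 mark between 2 or more H3K4me3 regions, and their number is small.

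The order of the marks along the chromosome was read by aligning 1523 regions with 1 H3K4me3 region on the centre of that region and turning each so that the H3K36me3 lay to the right. The side on which H3K36me3 lay is given by the construction and is no result. The shape on that side and the level on the other were not set by it alone. Going outward from the H3K4me3 centre on the H3K36me3 side, the pooled ratio was 0.706 in the first kb, 2.86 from 1 to 2 kb, 4.42 from 2 to 3 kb and highest, at 5.08, from 5 to 6 kb. It was 3.13 from 10 to 11 kb and 1.42 from 15 to 16 kb. H3K36me3 was thus low over the H3K4me3 region itself and came to its full level a few kb along.

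On the other side the ratio was 0.239 in the first kb and 0.514 from 5 to 6 kb out. For comparison, the ratio in all autosomal sequence outside H3K36me3 regions was 0.361. On the far side of H3K4me3 the ratio was thus below that level within 2 kb, at 0.325 from 1 to 2 kb. Further out it was above that level, at 0.481 from 2 to 3 kb. In the first kb the unamplified input stood at 3.04 times its mean. The rule sets the low ratio on the far side in part, since bins just outside an edge of an H3K36me3 region cannot qualify. From 5 to 6 kb out on that side, regions of 20 to 75 kb were at 1.24 and those of 80 kb or more at 1.88. Where H3K4me3 lies inside an H3K36me3 region, however, the mark can extend to both sides of it. H3K4me3 lay outside by 1 kb or more in 941 of 1523 compact regions. The counts were 1049 of 1876 at 20 to 75 kb and 83 of 171 at 80 kb or more. The 5 kb bin directly outside the edge had similar median ratios in these 3 classes, at 0.701, 0.679 and 0.727. Around compact regions the ratio was higher again at longer distances. It was 1.13 from 11 to 12 kb on the far side and 1.26 from 26 to 27 kb on the near side. The nearest other H3K36me3 region lay at a median of 20 kb from these regions.

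The first few kb looked much the same in longer H3K36me3 regions. In 1876 regions of 20 to 75 kb the ratio was 0.491 in the first kb, 2.31 from 1 to 2 kb and 3.94 from 2 to 3 kb. In 171 regions of 80 kb or more it was 0.401, 2.08 and 4.29. The compact regions were therefore no lower than the long ones over the first 3 kb. Pooled over their widths, they were below both classes from 6 to 7 kb on. The ratio there was 4.83 (4.76 to 4.91), against 5.67 (5.59 to 5.76) at 20 to 75 kb and 5.43 (5.14 to 5.74) at 80 kb or more. Only the compact regions of 5 kb, at 2.97, were lower there, and many of these end by construction before that distance. Those of 10 and 15 kb were at 5.84 and 5.98. From 10 to 11 kb the ratio was 6.05 in regions of 20 to 75 kb and 5.08 in those of 80 kb or more. It was 3.13 in all compact ones, which by construction are at most 15 kb wide, and 5.71 in those of 15 kb.

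**Figure D3:**
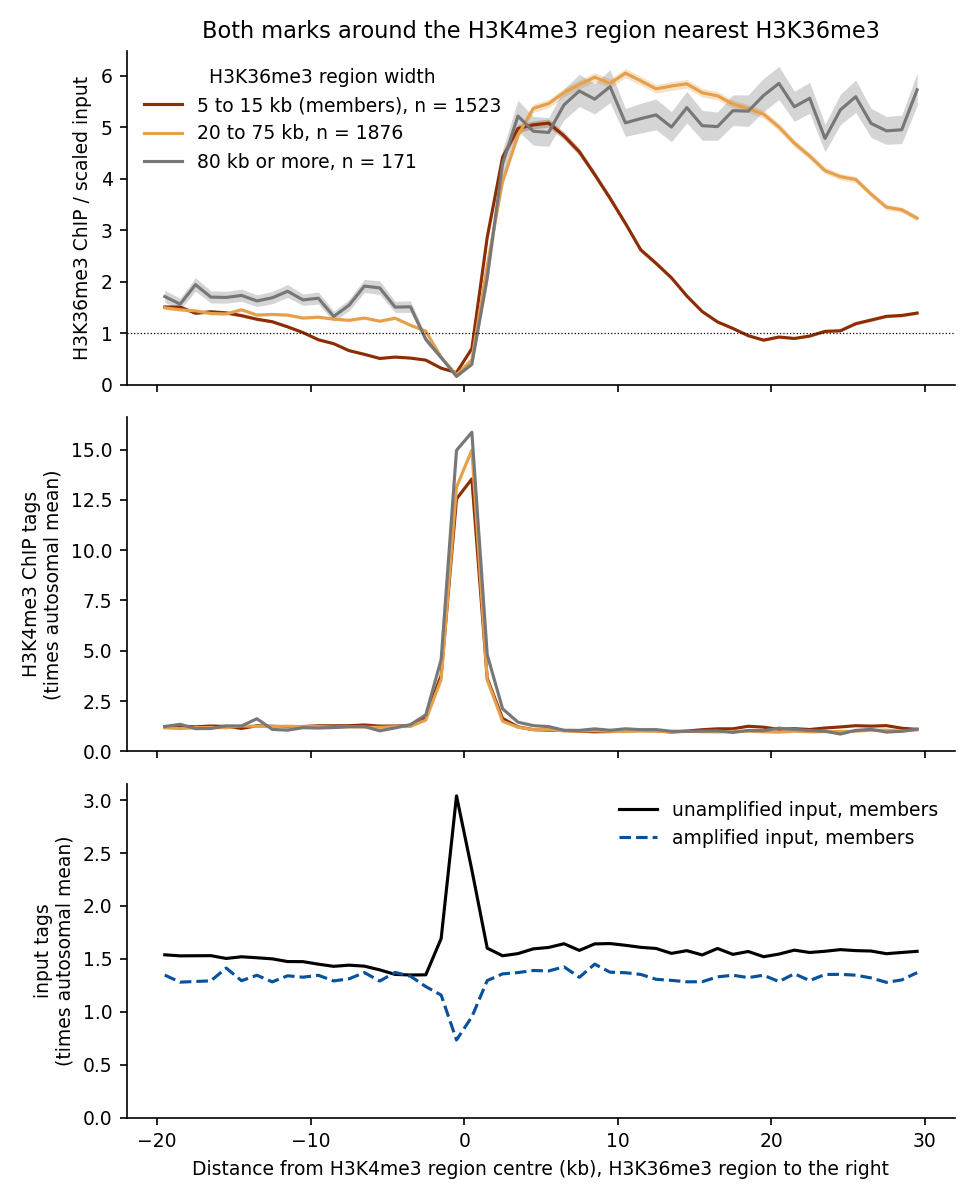
Horizontal axes give the distance in kb from the centre of the nearest H3K4me3 region, with the H3K36me3 region turned to the right. The top panel shows the pooled H3K36me3 ratio of ChIP to scaled input with exact 95% intervals (shading) for 3 width classes, the middle panel H3K4me3 tags and the bottom panel both inputs, in times of the autosomal mean; in compact regions H3K36me3 goes from 0.706 in the first kb to 5.08 at 5 to 6 kb.

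Within the compact class the level beyond H3K4me3 differed between widths. From 2 to 3 kb the pooled ratio was 3.84 in 568 regions of 5 kb, 5.08 in 544 of 10 kb and 4.30 in 411 of 15 kb. That distance lies before the H3K36me3 region where the gap is larger. H3K4me3 overlapped 16.8%, 29.6% and 31.4% of all compact regions with H3K4me3 at these widths. The part of this placement in the ratios was not tested. The highest values along the profile were 4.09, 6.24 and 6.31, at 3 to 4, 5 to 6 and 8 to 9 kb from the H3K4me3 centre. The peak of the mark thus lay further from H3K4me3 in wider regions, as their greater width allows.

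The H3K4me3 side of the same alignment was sharp. H3K4me3 tags stood at 12.5 times the autosomal mean in the kb on the far side of the centre and 13.5 times on the H3K36me3 side. They were at 3.78 times from 1 to 2 kb on the far side and 3.63 times from 1 to 2 kb on the H3K36me3 side. The mean was 1.86 times over the whole width of the 1668 H3K36me3 regions, of which 425 overlapped H3K4me3. Both inputs departed from their means at the H3K4me3 centre. The amplified input was used to choose the H3K4me3 regions, and a low value of it there is in part set by the rule. The unamplified input was at 3.04 times its mean on the far side and 2.34 times on the H3K36me3 side, and the amplified input at 0.735 and 0.954 times.

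The dip of H3K36me3 over H3K4me3 depended on which input was used. H3K36me3 ChIP tags alone were at 0.719 times their mean on the far side of the centre and 1.64 times on the near side. Divided by the amplified input in place of their own, the ratio there was 0.995 and 1.74, against 0.239 and 0.706, and this divides by an input that the rule selected to be low. The tags over H3K4me3 were fewer than in the neighbouring H3K36me3 region with either input. Whether they were below the genome mean differed between the inputs.

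The unamplified input was also uneven between the sides. To leave out regions where the H3K36me3 bins themselves included the H3K4me3 centre, 941 regions with H3K4me3 at least 1 kb outside were taken. The kb on the H3K36me3 side held 0.808 times as many unamplified input tags as the kb on the far side, and 571 regions had more on the far side against 350 with more on the near side (62.0%, 58.8 to 65.1). H3K4me3 ChIP tags went the other way, at 1.10, and so did the amplified input, at 1.28. In regions of 20 to 75 kb the values were 0.756, 1.16 and 1.35. The H3K4me3 ChIP and the amplified input took part in choosing the H3K4me3 regions, so their values are a description.

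Inside the compact regions the mark had no common slope away from H3K4me3. In 528 regions of 10 kb the bin nearer to H3K4me3 had a pooled ratio of 5.10 and the further bin 4.91, and the nearer bin was the higher in 52.7% (48.3 to 57.0). In 387 regions of 15 kb the 3 bins had 4.64, 6.24 and 4.63 from the H3K4me3 end. The middle bin was the highest in 49.9% (44.8 to 55.0) of them. The outer bins can be filled only in part by the mark, since the grid of bins was fixed.

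The length of the mark in compact regions was also read at base resolution. That it is short is set in part by the limit on width, by the bins outside that did not qualify and by the window searched. The shortest stretch that held 80% of the H3K36me3 tags of a region and 5 kb on each side of it had a median length of 5.45 kb (5.26 to 5.79) for regions of 5 kb, 7.25 kb (6.94 to 7.52) for 10 kb and 10.7 kb (10.5 to 10.98) for 15 kb. The same stretch of the input took 10.7, 14.4 and 18.3 kb. In compact regions without H3K4me3 the H3K36me3 stretch was longer, at 7.72, 9.92 and 13.6 kb. Tags were therefore packed more tightly where H3K4me3 was nearby. Those regions also had the higher ratio, and its part in the shorter stretch was not tested.

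The mark was also low outside the edges. The rule sets this in part at every width, since a qualifying bin directly outside, or the next one out, would have been merged. The 5 kb bin directly outside had a median ratio of 0.701, and the bin beyond it 0.337. Without H3K4me3 these were 1.10 and 0.864. An adjacent bin with a ratio of 1.5 or more, close to qualifying, lay beside 504 of the 1668 regions (30.2%) and beside 45.4% of those without H3K4me3. For regions of 20 to 75 kb with H3K4me3 the adjacent bin was at 0.679, so the level outside the edge was similar for compact and wider regions that had H3K4me3.

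The H3K4me3 regions beside compact H3K36me3 were 1795 in number, and 24 of them served 2 compact regions. For the 1749 whose H3K36me3 regions in reach were all compact, the median H3K4me3 region was 2 kb wide and held 66 ChIP tags and 1 input tag. Its median H3K4me3 ratio was 18.9, which rests on the pseudocount because 33.1% of these regions had no input tag. Of them 49.1% (46.7 to 51.5) were a single kb wide and 15.8% (14.2 to 17.6) were 3 kb or wider. The middle of the range was thus a small, sharp region.

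H3K4me3 regions held slightly more tags beside wider H3K36me3 regions, while the intervals of their ratio to input overlapped. The median was 71 tags (69 to 74) beside H3K36me3 of 20 to 75 kb and 80 tags (75 to 87) beside H3K36me3 of 80 kb or more, against 66 (62 to 69) beside compact regions. The median H3K4me3 ratio was 18.6 (17.7 to 19.4) beside 20 to 75 kb and 18.9 (17.6 to 20.3) beside compact regions. It was highest, at 21.0 (18.9 to 22.7), beside 80 kb or more, with an interval that overlapped both. H3K4me3 regions with no H3K36me3 in reach, 2427 of 7991, had a median of 44 tags (42 to 46). Inside the H3K4me3 regions the pooled H3K36me3 ratio was 0.650 beside compact regions, 0.503 beside 20 to 75 kb, 0.434 beside 80 kb or more and 0.175 with none in reach. Across the 1527 compact regions with 1 H3K4me3 region, the ratio of H3K36me3 followed the H3K4me3 tags over input only weakly (Spearman 0.178, a description across regions of shared libraries).

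Under the rule used here, 94 of the 1668 compact regions, or 5.64% (4.58 to 6.85), shared their H3K4me3 region with another H3K36me3 region, beside 5.24% of all 4489 H3K36me3 regions with H3K4me3 nearby. Counted over H3K4me3 regions, 69.6% of the 7991 had some H3K36me3 region within reach and 1.48% had 2 or more. The other H3K36me3 region at the shared H3K4me3 was compact in 48 of the 94 cases, 20 to 75 kb in 43 and 80 kb or more in 3. Regions that shared had a median ratio of 3.46 and the 1574 that did not share 4.10. Merging sets a least distance of 10 kb between H3K36me3 regions, which limits how many can share, and the share moved by over 4 times with the settings. It was 29.3% without merging across a bin, 27.1% with bins of 2.5 kb, 23.1% with a reach of 10 kb and 0.0818% with merging across 2 bins.

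Other H3K36me3 regions were nonetheless close. The nearest lay at a median of 20 kb, within 20 kb in 52.2% (49.8 to 54.6) and beyond 100 kb in 13.7% (12.1 to 15.5). Within 1 Mb the median number of H3K4me3 regions was 7 (6 to 7), against 4 around compact regions without H3K4me3, a count that includes the H3K4me3 regions the rule asked for. The unamplified input within 1 Mb was at 1.43 times its mean, against 1.22 times. Regions of 20 to 75 kb with H3K4me3 nearby had the same median of 7 H3K4me3 regions and an input of 1.42 times the mean, so these values were not particular to the compact ones.

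The regions were not spread evenly over chromosomes. There were 0.704 per covered Mb over all autosomes (exact Poisson interval 0.671 to 0.739). Chromosome 11 held 150, or 1.27 per Mb (1.07 to 1.48), and chromosome 18 held 33, or 0.377 per Mb (0.260 to 0.530). Chromosomes 19 and 7 followed chromosome 11, at 0.982 and 0.933 per Mb, with intervals that overlapped that of chromosome 11. Chromosome 1, with 97 regions and 0.507 per Mb, was the next lowest after chromosome 18.

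The share of compact regions with H3K4me3 nearby had the same extremes. It was 40.9% (35.8 to 46.1) on chromosome 11 and 17.0% (12.0 to 23.1) on chromosome 18, with 30.2% over all. The unamplified input was at 1.31 times the autosomal mean on chromosome 11 and 0.927 times on chromosome 18. The amplified input was at 1.19 and 0.971 times. Over the other autosomes input density and share did not keep one order. Chromosome 3 had the lowest unamplified input, 0.786 times the mean, and a share of 31.6%, and chromosome 9, at 1.11 times, had a share of 28.2%. The part of input density in the difference between chromosomes was not tested.

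**Figure D4:**
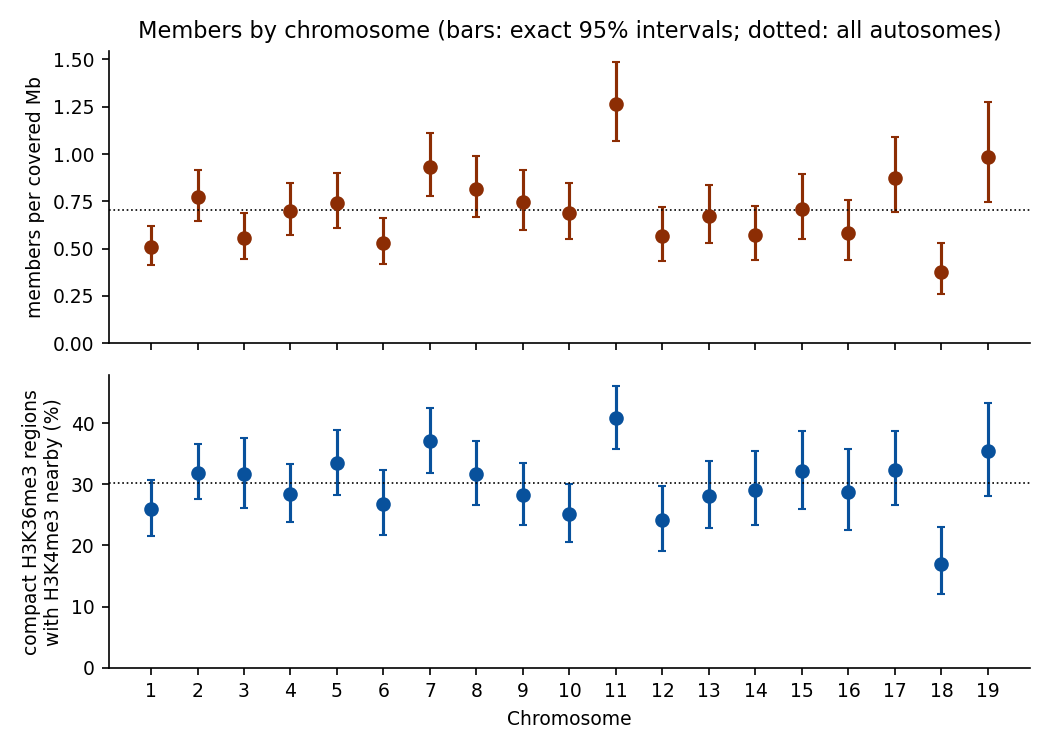
The upper panel gives compact H3K36me3 regions with H3K4me3 nearby per covered Mb of each autosome and the lower panel the percentage of compact regions that have H3K4me3 nearby. Bars are exact 95% intervals and dotted lines the value over all autosomes; chromosome 11 (1.27 per Mb, 40.9%) is the highest and chromosome 18 (0.377 per Mb, 17.0%) the lowest in both.

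Single regions show the pattern in the tags. The 8 with the most H3K36me3 tags above scaled input were all 10 or 15 kb wide and held 1712 to 2339 ChIP tags. The first was chr2:165065001-165080000, with 2339 ChIP and 419 input tags and a ratio, here without pseudocount, of 12.3 (11.1 to 13.7). Its 3 bins had 314, 1595 and 430 ChIP tags, and the bins directly outside had 13 and 2. An H3K4me3 region of 110 ChIP tags and 1 input tag covered chr2:165078001-165080000, at the high-coordinate end. A second, of 20 ChIP tags, lay 5 kb beyond the other end, with a ratio of 1.72 against the unamplified input, below the threshold of 4. Outside the end that H3K4me3 marked, the H3K36me3 ChIP thus went from 430 tags to 2 between neighbouring bins, while the input went from 143 to 94.

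The region with the highest ratio of the 8 was chr8:109305001-109320000, with 1766 ChIP and 197 input tags and a ratio of 19.8 (17.1 to 23.05). Its bins had 484, 1088 and 194 tags, and the 2 bins on either side had 5 to 11. A single H3K4me3 region, of 146 ChIP and 4 input tags, lay across its low-coordinate edge at chr8:109304001-109306000. The nearest other H3K36me3 region was 155 kb away. This one therefore stood alone and began at H3K4me3.

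At chr12:81670001-81680000 the 2 bins had 416 and 1296 tags, for a ratio of 15.1 (13.2 to 17.3), and the bins outside had 13 and 5. H3K4me3 covered the last 2 kb of the region, with 58 ChIP and 2 input tags, a ratio of 8.36 that was 2.60 against the unamplified input and so below the threshold of 4. The region at chr17:34850001-34865000, with a ratio of 9.48 (8.55 to 10.5), was the only 1 of the 16 named regions whose H3K4me3 was shared, with another H3K36me3 region 10 kb away. The other 4 of the 8 were at chr10:79260001-79275000, chr10:80580001-80595000, chr5:143225001-143240000 and chr11:69720001-69735000, with ratios of 10.4, 6.61, 8.91 and 9.13.

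The 4 regions of 5 kb with the highest ratio were a single bin between bins that did not qualify. The highest, chr6:48525001-48530000, had 970 ChIP and 128 input tags, a ratio of 16.7 (13.9 to 20.3), between bins of 15 and 48 ChIP tags. It had H3K4me3 outside both ends, each a single kb with 25 and 24 ChIP tags and no input tag. Against the unamplified input their ratios were 2.39 and 4.21, the first of them below the threshold of 4. The others were chr8:26485001-26490000, chr8:97280001-97285000 and chr15:79905001-79910000, at 15.2, 14.6 and 14.6, with intervals that overlapped each other and that of the first. Each of these 3 had 1 H3K4me3 region, outside and at most 5 kb away. That of chr8:97280001-97285000 had a ratio of 72.0, with no input tag, and of 2.51 against the unamplified input.

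The 4 regions beside the strongest H3K4me3 were chosen by H3K4me3 tags, so their H3K4me3 is high by selection. At chr10:36820001-36830000 an H3K4me3 region of 7 kb held 716 ChIP and 3 input tags, and the H3K36me3 region held 396 tags, a ratio of 7.05 (5.75 to 8.70). At chr18:55110001-55115000 the H3K4me3 region was 8 kb wide with 669 ChIP tags, wider than the H3K36me3 region beneath it, which had 107 tags and a ratio of 2.54 (1.91 to 3.39). The other 2 were chr9:41330001-41345000 and chr13:28950001-28960000, with H3K36me3 ratios of 7.49 and 5.72. Of these, 3 of the 4 had ratios above the median of 4.09.

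**Figure D5:**
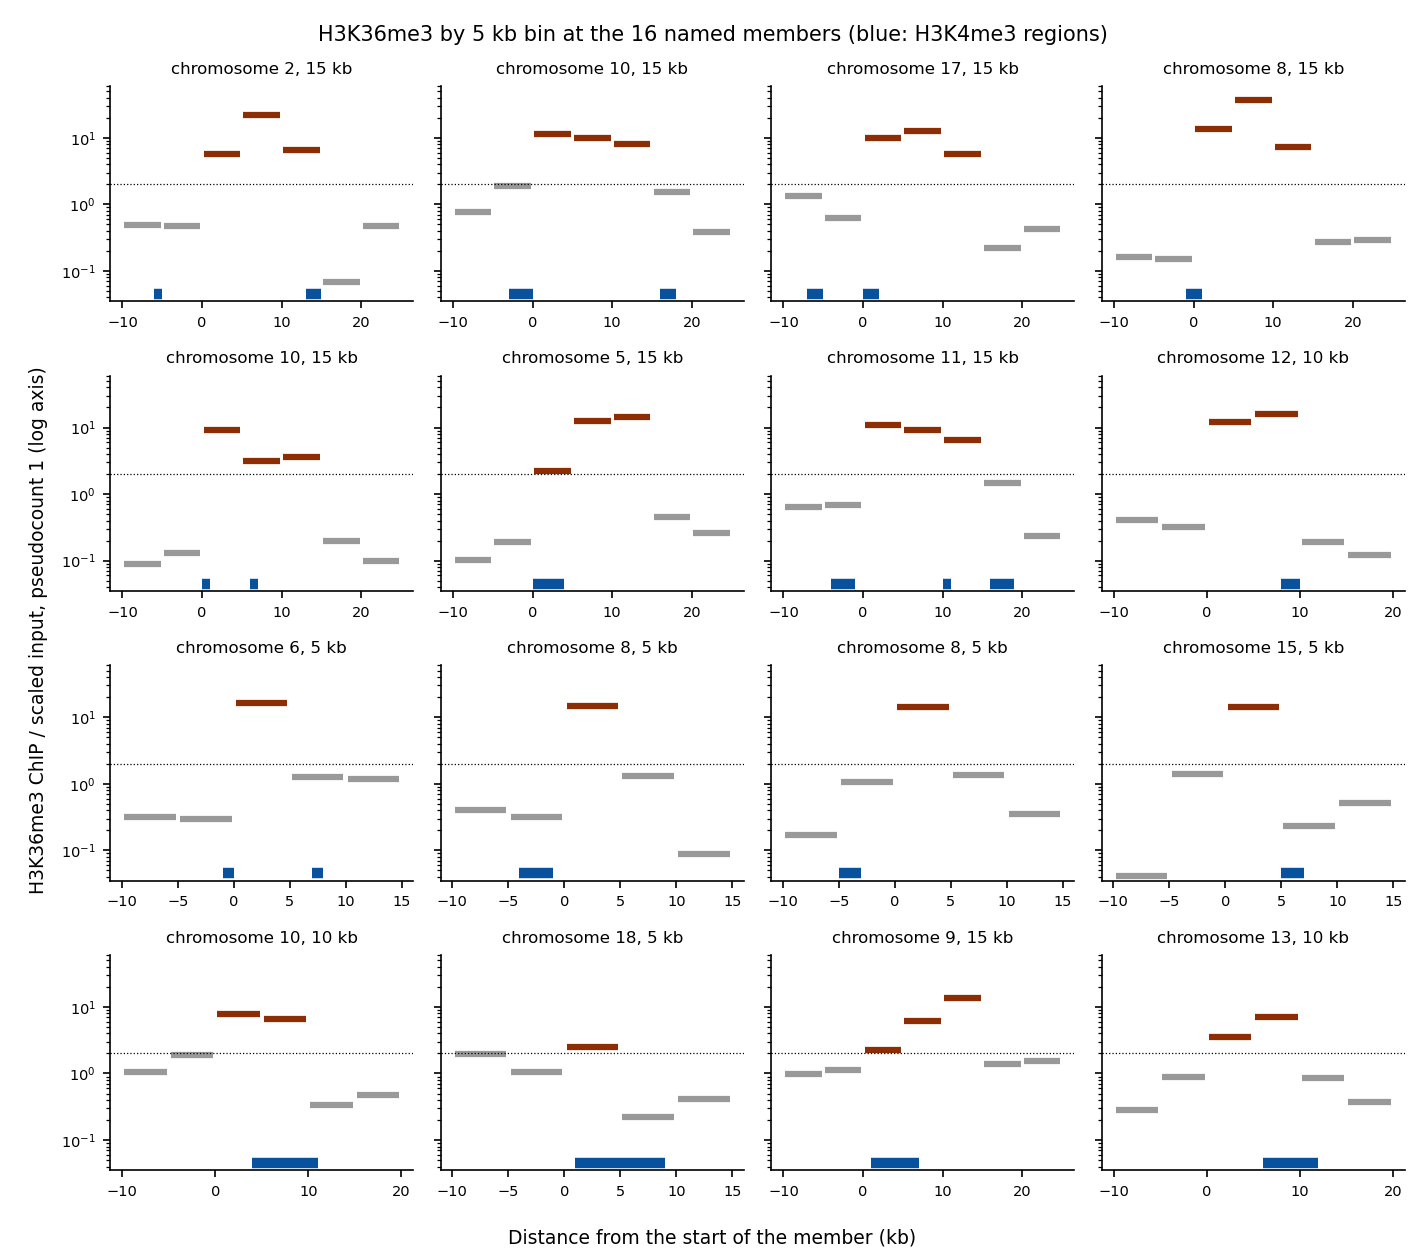
Each panel is 1 of the 16 named regions, with the H3K36me3 ratio of ChIP to scaled input per 5 kb bin (log axis) against the distance in kb from the start of the region; brown bins belong to it, grey bins lie outside, blue marks H3K4me3 regions and the dotted line is the ratio of 2. In the 15 kb region on chromosome 8 the highest bin is at 36.9 and the bins outside at 0.153 to 0.292, and on chromosome 18 the region is a single bin at 2.504 under a wide H3K4me3 region.

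At the limit of the rule the regions just inside and just outside did not differ visibly. The lowest qualifying ratio belonged to chr3:137810001-137815000, with 40 ChIP and 43 input tags and a ratio of 2.002. The highest ratio that failed was at chr7:73875001-73880000, with 68 and 74 tags and 1.999. At the tag minimum, chr6:116065001-116070000 was in with 20 ChIP tags and chr15:42990001-42995000 was out with 19. Near H3K4me3 and apart from H3K36me3 regions, 1393 further bins passed the tag minimum and not the ratio, 274 of them at 1.5 or more, and 14 passed the ratio and not the tag minimum.

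The number of compact regions with H3K4me3 depended on the scale of the input. The scale used here came from library totals, and with it the ratio outside H3K36me3 regions was 0.361. With a scale taken from background bins, only 639 of the 1668 (38.3%) were still compact regions with H3K4me3, and the other 1029 had become part of wider ones. Under that scale 1012 compact regions had H3K4me3 nearby, 14.1% of all compact ones, and their median ratio was 9.07. With the bins moved by 2.5 kb, 1190 (71.3%) still were, 269 were in wider regions, 105 had lost their H3K4me3 and 104 were not called. The width of a region here is therefore its width above a ratio of 2 at the scale from library totals.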

How the data were processed

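Chromatin immunoprecipitation followed by sequencing was carried out in 4 libraries, 1 per group. The authors deposited the genome positions and strand signs of placed tags, 1 list for each library and without normalised values. Per the submitters' processing notes, positions are in mm8. Neither an aligner nor a read length is given in the sources used here. The deposited list of the amplified H3K4me3 input held repeated tags, and keeping 1 per position and sign removed 27.5% of its 3464484 tags, while in the other 3 lists repeats had been collapsed.

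Tags were shifted by 75 bp along their strand and counted on chromosomes 1 to 19 in 1 kb (H3K4me3) and 5 kb (H3K36me3) bins. Inputs were scaled by library totals, with a pseudocount of 1 except for the ratios of single named regions, of pooled regions and of profiles. Shares and ratios have exact Clopper-Pearson 95% intervals, densities per Mb exact Poisson intervals, and medians order-statistic intervals, all for these libraries only. PCR reads are not independent molecules, so intervals on tags may be too narrow. Regions named in the text were the 8 with the most H3K36me3 tags above scaled input, the 4 of 5 kb with the highest ratio, the 4 with the most H3K4me3 tags above input, and those nearest the threshold. The regions, lists and rules were chosen with earlier results of these data known. The calling script was tested on simulated tags. Alternatives covered the input and its scale, thresholds, tag minimum, grid, merging, shift, repeats, distance and bin size. Reference tables of another mouse build were not used. Python 3.11.15, NumPy 2.4.6, SciPy 1.17.1, pandas 2.3.3 and matplotlib 3.10.9 were used.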

Additional observations from a re-analysis of the deposited data

How the results depend on the processing

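No paired analysis was possible because each group held 1 library, and for the same reason none could be left out. The values below are, in order, the number of compact H3K36me3 regions with H3K4me3 nearby (1668), their share of compact regions (30.2%), their median ratio (4.09) and the share whose H3K4me3 region was shared (5.64%), where they moved beyond their interval, or for the number by over 1.5 times. A background scale of the input (0.111 times the input tags) gave 1012, 14.1%, 9.07 and 3.06%. An H3K36me3 ratio of 1.5 gave a share of 26.3% and a median of 3.46, and a ratio of 3 gave 33.9% and 5.33. An H3K4me3 ratio of 2 gave a share of 31.8% and a ratio of 8 gave 25.5%. A minimum of 10 tags gave 35.5% and 3.84, and 40 tags gave 1092, 20.2% and 4.64. Moving the grid gave 4.15% sharing. Without merging across a bin there were 2833 regions, 29.3% of them sharing, and with merging across 2 bins 0.0818% shared. Counting overlap alone as nearby gave 425, 7.69%, 4.45 and 0%, and counting 10 kb gave 36.7%, 3.81 and 23.1% sharing. Bins of 2.5 kb with at least 10 tags gave 33.7%, 4.76 and 27.1% sharing. The tag shift and the repeats of the amplified input moved none of the 4 values beyond these bounds. The cause of each move was not tested, beyond the fewer or wider regions that a setting makes by its construction.

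All 16 named H3K36me3 ratios were higher with the background scale (10.4 to 80.8). With the amplified input, 18 of 21 ratios of H3K36me3 at named regions and along the profile were higher. With the unamplified input, 1 of 23 H3K4me3 ratios of named regions was higher, and they ranged from 1.63 to 36.5, with 7 of them below the threshold of 4. The amplified input, with 1.03 tags per kb, limits every H3K4me3 ratio, since the median H3K4me3 region held 1 input tag.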

Other observations

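The X chromosome was outside the rule. Built in the same way, it held 387 H3K36me3 regions, of which 254 were compact and 79 of those had H3K4me3 nearby. This came to 0.516 per covered Mb (exact Poisson interval 0.409 to 0.643), against 0.704 on the autosomes. The share of compact regions with H3K4me3 nearby was 31.1% (25.5 to 37.2), an interval that includes the 30.2% of the autosomes. Their median ratio was 3.75, with a lowest of 2.01 and a highest of 14.3. The unamplified input stood at 0.398 times the autosomal mean on the X chromosome and the amplified input at 0.513 times, so regions there rested on fewer tags.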
